A study of Mus musculus with 4 samples.

Results

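The 10 genes described here encode the core enzymes that burn fatty acids inside mitochondria: Cpt1a and Cpt2 of the carnitine shuttle, the acyl-CoA dehydrogenases Acadvl, Acadl, Acadm and Acads, and Hadh, Hadha, Hadhb and Acaa2 of the later steps. They were taken by name, as the probe sets whose only gene symbol is one of these 10. The rule uses no measured value, but the group was picked with earlier results of these data known, so the counts over the 10 are a description. Each of the 10 had 1 probe set, so 10 of the 22180 genes with a value were members. RNA came from cultured cells of 4T1, a mouse mammary carcinoma line. The groups come from the sample titles, with the control called scramble and the knockdown called shLDHA. These names are read here as a short hairpin RNA of scrambled sequence and a short hairpin RNA against Ldha, which the titles do not spell out. Ldha encodes the A subunit of lactate dehydrogenase, which turns pyruvate into lactate. Cells positive for the Ldha hairpin had been selected in 10 µg/ml puromycin and mixed into 1 population. Whether the scramble cells were selected too is not stated, so selection and knockdown cannot be told apart. Both groups were grown in vitro for 24 hours in complete RPMI 1640 medium. Biotin-labelled cDNA was made from 400 ng of total RNA with a whole-transcript kit from Affymetrix, and each group had 2 arrays, 4 in all. Nothing in the labels says that the 2 arrays of a group came from separate cultures, so the p-values rest on a spread between arrays that may be only technical.

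Mitochondrial β-oxidation shortens a fatty acid by removing acetyl-CoA at its end in repeated rounds. CPT1 on the outer membrane joins the fatty acid to carnitine, CPT2 on the inner membrane returns it to coenzyme A, and each round then runs through an acyl-CoA dehydrogenase, a hydratase, a hydroxyacyl-CoA dehydrogenase and a thiolase. For long chains the last 3 steps are carried out by the mitochondrial trifunctional protein, whose α subunit is encoded by Hadha and whose β subunit is encoded by Hadhb. Fatty acids and pyruvate are alternative sources of the acetyl-CoA that mitochondria oxidise. All values below are of RNA from whole cultures, in which fewer cells with a transcript and less of it per cell cannot be told apart, and enzyme activity was not measured.

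Values are log2 expression values, on which a difference of 1 is a 2-fold difference. The groups were compared with limma across all genes, and a gene was called where its Benjamini-Hochberg adjusted p was under 0.05. The arrays were close to each other, with medians over all probe sets from 3.87 to 3.90, and the correlations below are across genes, which are not independent replicates. They were r = 0.997 within either group and r = 0.993 between groups. Ldha itself read 6.69 and 6.96 in scramble and 6.31 and 6.15 in shLDHA. It was 1.51-fold lower in shLDHA (log2 change -0.59, SE 0.12, adjusted p = 0.0390 in limma). Without scramble replicate 2, shLDHA replicate 1 or shLDHA replicate 2 the adjusted p of Ldha was 0.130, 0.0964 and 0.164. Of 8 markers of mammary carcinoma epithelium, the keratin genes Krt7, Krt8 and Krt18 and the adhesion genes Epcam and Cdh1 read at least 8.45 on every array, while Krt19 read 6.43 to 6.82, Cldn7 4.98 to 6.12 and Krt14 3.88 to 4.86. In shLDHA, Krt8, Epcam and Krt14 rose, by 0.47, 0.53 and 0.80 on the log2 scale, and Cldn7 fell by 1.06; the part of these markers in the results below was not tested. The 6 leukocyte, 5 endothelial and 5 adipocyte markers stayed at or below 3.54, 3.83 and 4.49 on all 4 arrays. Of 7 fibroblast markers, Pdgfra read 6.38 to 6.61 and the others stayed at or below 3.80.

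Hadha and Hadhb lie head to head in the genome and are read in opposite directions from neighbouring start sites, which is why their shared start region is shown. In RefSeq's table for GRCm38.p6 the first base of Hadha is chr5 position 30154980 on the minus strand and that of Hadhb is position 30155253 on the plus strand, with 272 bases between them. The 300-base promoter windows of the genes, 250 bases before and 50 after each start, share 228 bases. The 250 bases before the Hadhb start, chr5:30155003-30155252 on the plus strand, are given 5′ to 3′, with capitals for each GGGCGG, the GC box bound by Sp1 and related factors.
Hadhb upstream region: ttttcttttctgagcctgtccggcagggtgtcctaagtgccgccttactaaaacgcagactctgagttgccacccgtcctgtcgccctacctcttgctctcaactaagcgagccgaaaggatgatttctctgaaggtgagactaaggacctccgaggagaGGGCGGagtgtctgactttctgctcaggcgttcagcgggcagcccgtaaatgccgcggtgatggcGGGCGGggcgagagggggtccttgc
Of its bases, 58.8% are G or C, and it holds GGGCGG at positions 161 and 226 counted from the left end, both on the plus strand. The 250 bases before each start were searched on both strands. GGGCGG or its reverse complement CCGCCC was found for 7 of the 9 members looked up, and in 32.7% of all 32851 windows. The 7 were Cpt1a, Cpt2, Acadl, Acads, Hadh, Hadha and Hadhb. The AGGTCA hexamer bound by nuclear receptors such as the PPARs (or its reverse complement TGACCT) was found for Cpt1a, Acadvl and Acadm, and in 14% of all windows. The CCAAT box, bound by NF-Y, or its reverse complement ATTGG was found for Cpt1a and Hadh, 2 of the 9, and in 33.8% of all windows. A member was counted if any of its windows held the match, while the percentages count single windows, so the 2 are not like measures. The windows of Hadha and Hadhb share 228 bases, so their GC box matches are not separate. Such a match describes the letters only.

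Of the 10 enzymes, Hadha rose in shLDHA and no other member passed the test. The 1 call stands beside 3.37% of all genes called higher and 2.99% called lower (6.36% in either direction). Most of the 10 read higher in shLDHA. In 8 of the 10 the shLDHA mean was above the scramble mean, against 51.7% of all genes, and the median log2 change of the 10 was 0.22, against 0.01 over all genes. Both shLDHA arrays lay above both scramble arrays for 7 of the 10, where 26.2% of all genes did so, and both lay below for 0 of the 10, where 24.0% did so. The higher group mean had a median of 4.10 over all genes, and of the 10 only Hadhb (4.27) was near it. The shares over all genes thus rest largely on genes dimmer than most members. The median was 0.18 to 0.21 when any 1 array was left out.

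**Figure D1:**
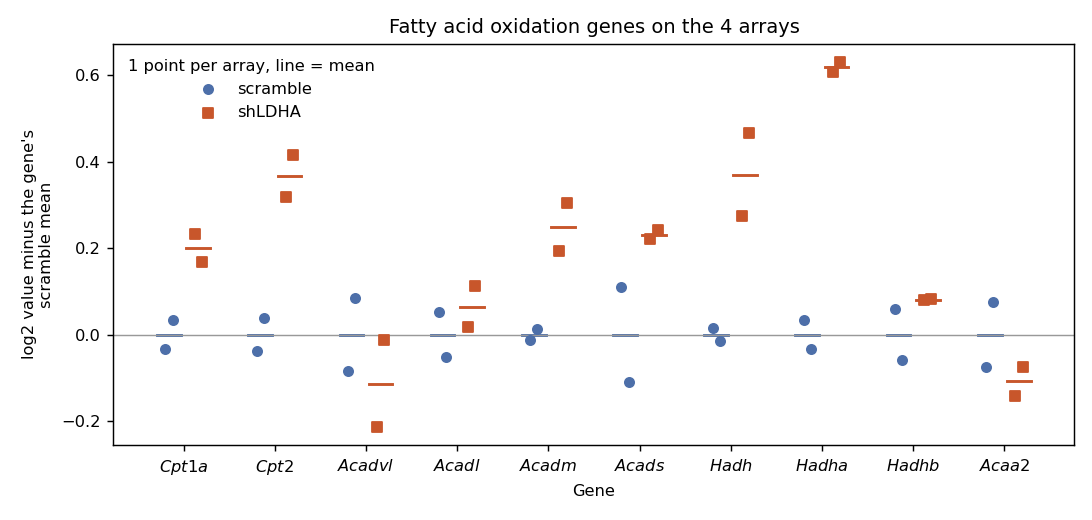
Each point is 1 array, and the y axis gives its log2 value minus the scramble mean of the gene, for scramble (circles) and shLDHA (squares); lines are group means of 2 arrays. The squares of Hadha lie farthest above 0, around 0.62, and those of Acadvl and Acaa2 lie below 0.

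The carnitine shuttle genes read higher in shLDHA without passing. Cpt1a, the step of entry into mitochondria that malonyl-CoA inhibits, read 6.71 and 6.78 in scramble and 6.98 and 6.91 in shLDHA. The groups did not overlap, and the log2 change was 0.20 (95% interval -0.003 to 0.40, adjusted p = 0.239 in limma). Cpt2, which restores the acyl-CoA in the matrix, read 6.42 and 6.49 in scramble and 6.77 and 6.87 in shLDHA. Both knockdown arrays were again the higher ones, with a change of 0.37 (95% interval 0.16 to 0.58), or 1.29-fold, and a limma adjusted p of 0.0635. Cpt2 was among the members closest to the threshold.

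The acyl-CoA dehydrogenases, which begin each round and differ in the chain length they accept, gave values of either sign. Acadvl, for very long chains, read 6.08 and 6.25 in scramble and 5.95 and 6.15 in shLDHA, so its groups overlapped. Its log2 change was -0.11 (95% interval -0.37 to 0.15). Acadl, for long chains, read 9.25 and 9.14 in scramble and 9.21 and 9.30 in shLDHA, with overlap as well and a change of 0.06 (95% interval -0.15 to 0.28). The genes for shorter chains had larger positive values. Acadm, for medium chains, read 8.97 and 8.99 in scramble and 9.17 and 9.28 in shLDHA, a change of 0.25 (95% interval 0.04 to 0.46, limma adjusted p = 0.162). Acads, for short chains, read 6.26 and 6.04 in scramble, more widely apart than its shLDHA readings of 6.37 and 6.39, and changed by 0.23 (95% interval -0.01 to 0.47, limma adjusted p = 0.255). For both Acadm and Acads the knockdown arrays lay above the control arrays. Whether the dehydrogenases differed from each other in their changes was not tested, and the intervals of all 4 overlap.

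The later steps held the called gene. Hadha, whose α subunit has the hydratase and the long-chain hydroxyacyl-CoA dehydrogenase activities of the trifunctional protein, read 9.18 and 9.12 in scramble and 9.76 and 9.78 in shLDHA. The arrays of a group lay close together and the groups far apart. The scramble mean was 9.15 ± 0.05 (SD, n = 2) and the shLDHA mean 9.77 ± 0.02 (SD, n = 2). Hadha was thus 1.54-fold higher in the knockdown, with a log2 change of 0.62 (SE 0.08, 95% interval 0.42 to 0.82, adjusted p = 0.0112 in limma). The call was kept in all 8 alternative settings that used 4 arrays. It was kept without scramble replicate 1 (adjusted p = 0.0339) and lost without scramble replicate 2 (0.0521), shLDHA replicate 1 (0.0602) or shLDHA replicate 2 (0.0682), while the log2 change stayed between 0.59 and 0.65 across all 12 settings.

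Hadhb, the thiolase subunit of the same complex, read 4.24 and 4.13 in scramble and 4.27 and 4.27 in shLDHA. Its log2 change was 0.08 (95% interval -0.13 to 0.29, adjusted p = 0.677 in limma), although both shLDHA arrays were slightly the higher ones. The probe set was dim. Its group means of 4.19 and 4.27 were close to 4.24, the level below which 95% of 1105 olfactory receptor genes lay, and a change in such a dim probe set can be understated. Taken within each array and centred, Hadha minus Hadhb was -0.29 and -0.24 in scramble and 0.26 and 0.28 in shLDHA. The difference between the groups was 0.54, with a spread of 0.04 (SD) in scramble and 0.01 (SD) in shLDHA. The exact two-sided permutation test gave p = 0.333, which is the smallest p that 2 arrays against 2 allow. With Hadhb at the level of olfactory receptor genes, these readings do not show whether the pair that shares the start region printed above changed unequally.

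Hadh, the hydroxyacyl-CoA dehydrogenase for short and medium chains, read 9.28 and 9.25 in scramble and 9.54 and 9.73 in shLDHA. The groups did not overlap, but the shLDHA arrays were farther apart from each other than the scramble arrays. Its change was 0.37 (95% interval 0.14 to 0.60), or 1.29-fold, with a limma adjusted p of 0.0821. Acaa2, the mitochondrial thiolase that closes the round for medium chains, read 6.80 and 6.95 in scramble and 6.74 and 6.80 in shLDHA. A scramble and a shLDHA array were equal to 2 decimals, and the change was -0.11 (95% interval -0.33 to 0.11, limma adjusted p = 0.584). Hadha had the largest change of the 10, followed by Hadh and Cpt2, which both changed by 0.37. The thiolase genes Hadhb and Acaa2 were among those with small changes, but Hadhb was dim. Whether the steps differed in their changes was not tested.

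**Figure D2:**
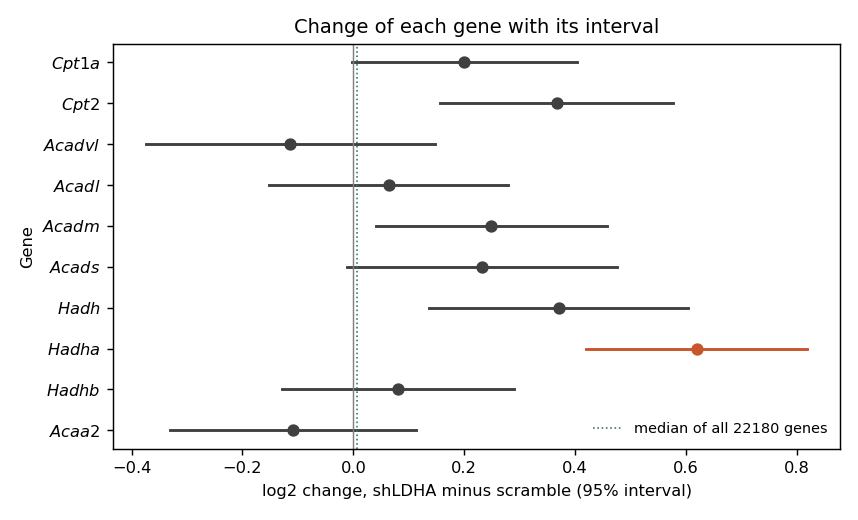
The x axis gives the log2 change of each gene, shLDHA minus scramble, and the bar its 95% interval from limma (2 arrays per group); Hadha, in colour, is the gene that passed, and the dotted line marks the median of all genes. The intervals of Cpt2, Acadm and Hadh also lie above 0, from 0.16, 0.04 and 0.14 upward, but their p-values did not pass after adjustment over all genes.

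How many members passed depended on how limma modelled the variance and on which genes entered. When only the brighter part of the genes was tested, those whose higher group mean was at least the median of 4.10, 3 members were called, namely Hadha (adjusted p = 0.00188), Cpt2 (0.0161) and Hadh (0.0233). With a variance that followed the signal level, 4 members were called: Hadha (adjusted p = 6.85e-05), Hadh (0.00546), Cpt2 (0.0187) and Acadm (0.0231). All of these calls were rises. Called genes among all genes went up too, to 2836 of 11090 under the first and 2806 of 22180 under the second, from 1410 in the fit reported here. Cpt1a, Acadvl, Acadl, Acads, Hadhb and Acaa2 passed in 0 of the 12 settings. None of the 10 members changed sign in any of the 12 settings. With 1 probe set each, their log2 changes could not move under the block, the filter, the probe-set settings or the eBayes options. For members whose groups did not overlap, leaving out 1 array could not change the sign either.

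**Figure D3:**
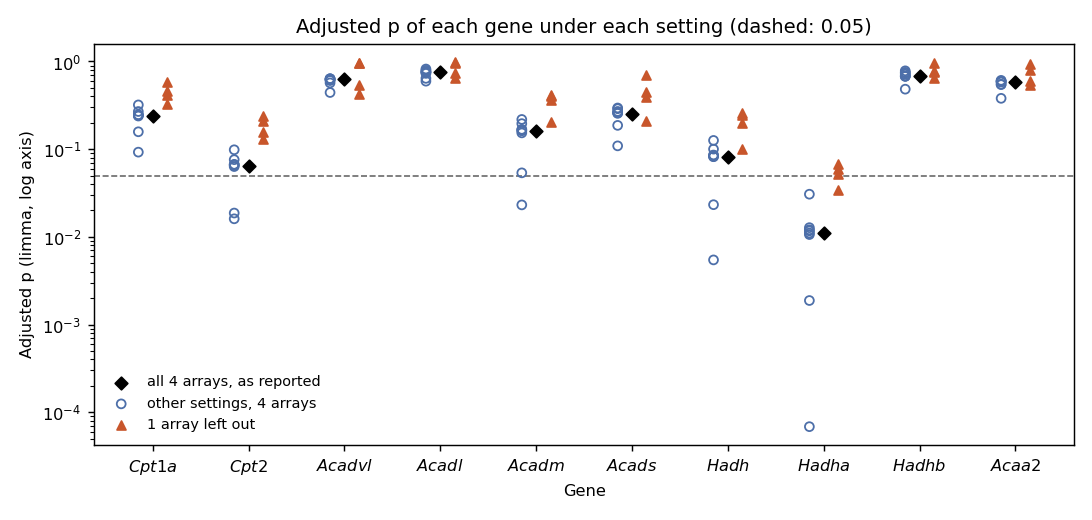
For each gene the y axis, a log axis, gives the limma adjusted p in the fit reported here (diamonds), in 8 other settings with all 4 arrays (circles) and in 4 settings without 1 array (triangles); the dashed line is the threshold of 0.05. Every circle of Hadha lies below the line and 3 of its 4 triangles lie above it, while Cpt2 and Hadh have 2 circles each below the line.

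The genes around the core pathway were read from 9 lists of 91 genes, of which 82 had a value. Of these 82, 5 rose and 4 fell, so 11.0% were called, against 6.36% of all genes, and their median log2 change was 0.07. Whether this share differed from the rest of the genes was not tested. The calls were spread thinly, with no list having more than 2.

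In the list of the carnitine shuttle and acyl-CoA activation, 1 of 8 genes rose, 1 fell and 6 did not pass (median log2 change -0.07). Crot, which encodes the carnitine octanoyltransferase of peroxisomes, read 7.56 and 7.64 in scramble and 8.15 and 7.97 in shLDHA. It rose by 0.46 (SE 0.10, limma adjusted p = 0.0431). Acsl6, an acyl-CoA synthetase that activates long-chain fatty acids, read 5.64 and 5.55 in scramble and 4.78 and 5.07 in shLDHA. It fell by 0.67 on the log2 scale (SE 0.12, limma adjusted p = 0.0241), and the mean of its 2 probe sets changed by -0.39. Slc25a20, the translocase that carries acylcarnitine between CPT1 and CPT2 across the inner membrane, had a change of -0.31 (95% interval -0.53 to -0.10, limma adjusted p = 0.0992), opposite in sign to both of them. Acsl5 changed by 0.21 and did not pass. Crot lost its call without any 1 array (adjusted p from 0.0834 to 0.160). For Acsl6 the call went when either scramble array was left out (0.0759 for replicate 1, 0.0541 for replicate 2) and when shLDHA replicate 1 was (0.0854).

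Among the auxiliary enzymes and the electron transfer proteins, 1 of 16 rose, 0 fell and 15 did not pass (median 0.11). Acad10, a member of the acyl-CoA dehydrogenase family, read 4.94 and 5.02 in scramble and 5.38 and 5.41 in shLDHA and rose by 0.41 (SE 0.08, limma adjusted p = 0.0395). Without any 1 array its adjusted p was 0.111 to 0.169. Eci2, an isomerase for unsaturated chains, had a change of 0.39 and a limma adjusted p of 0.0768, and Acat1, the acetoacetyl-CoA thiolase, had 0.34 and 0.0936. Decr1, the dienoyl-CoA reductase for unsaturated chains, changed by -0.34 (limma adjusted p = 0.146). The acceptors of electrons from the dehydrogenases gave mixed values, with -0.19 for Etfa, -0.26 for Etfb and 0.18 for Etfdh, and none passed.

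Of 6 genes that handle propionyl-CoA, the end product of odd-numbered chains, 1 rose, 0 fell and 5 did not pass (median 0.19). Pccb, the β subunit of propionyl-CoA carboxylase, read 5.68 and 5.63 in scramble and 6.02 and 6.21 in shLDHA. It rose by 0.46 (SE 0.10, limma adjusted p = 0.0431), and its adjusted p was 0.0743 to 0.164 without any 1 array and 0.0527 with each array centred on its median. Mmab, an enzyme of cobalamin metabolism, had a change of 0.37 and a limma adjusted p of 0.05 after rounding, just outside the threshold. Mmaa was the 1 gene of the 6 with a change below 0, at -0.20 (limma adjusted p = 0.265), and both of its shLDHA arrays lay below both scramble arrays. None of the 3 genes of the malonyl-CoA brake passed, the acetyl-CoA carboxylases Acaca (-0.17) and Acacb (0.04) and the malonyl-CoA decarboxylase Mlycd (0.04). Acacb read 3.34 to 3.55 and Mlycd 3.58 to 4.01, below the level of 4.24 under which most olfactory receptor genes lay. Their small changes therefore do not show that these 2 genes were steady. Of 3 ketone body genes with a value 0 passed, and Oxct1, which encodes an enzyme of ketone body use, changed by 0.22.

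Peroxisomes hold a separate β-oxidation, for very long and branched chains, and its list had the largest rise among the metabolic enzymes considered here. Of 11 genes with a value, 1 rose, 0 fell and 10 did not pass (median 0.13). Acox2, the oxidase for branched chains and bile acid intermediates, read 4.90 and 4.78 in scramble and 5.67 and 5.83 in shLDHA. The groups were well apart, and Acox2 rose 1.88-fold (log2 change 0.91, SE 0.10, limma adjusted p = 0.00544). It passed in all 12 alternative settings. Acox3, a related oxidase, had a change of 0.50 (limma adjusted p = 0.0579), the sterol carrier protein gene Scp2 had 0.40 (0.118) and the thiolase gene Acaa1a had 0.26 (0.207).

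In the list of uptake, binding and release of fatty acids, 0 of 13 genes rose, 2 fell and 11 did not pass (median -0.02). Plin2, which coats lipid droplets, read 9.89 and 9.87 in scramble and 9.28 and 9.30 in shLDHA. It was 1.50-fold lower (log2 change -0.59, SE 0.08, limma adjusted p = 0.0127). Abhd5, the activator of the triglyceride lipase ATGL, read 7.97 and 8.06 in scramble and 7.32 and 7.33 in shLDHA, 1.61-fold lower (log2 change -0.69, SE 0.08, limma adjusted p = 0.00837). Pnpla2, the gene of that lipase, changed by -0.10 (95% interval -0.31 to 0.12). Slc27a3 (0.46) and Fabp3 (0.33) did not pass. Plin2 had an adjusted p of 0.0522 without scramble replicate 1, and of 0.0681 or 0.0671 when the first or second shLDHA replicate was left out. Abhd5 had 0.0518 and 0.0554 in the last pair of settings.

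Of 14 transcription factors and coregulators linked to these genes, 0 rose, 1 fell and 13 did not pass (median 0.05). Ppard encodes PPARδ, a nuclear receptor that fatty acids activate and that switches on oxidation genes in many tissues. It read 7.97 and 8.12 in scramble and 7.26 and 7.35 in shLDHA. Ppard was 1.67-fold lower in shLDHA (log2 change -0.74, SE 0.09, limma adjusted p = 0.00965), so it fell in the samples in which Hadha rose. It lost the call without shLDHA replicate 1 (0.0602) or 2 (0.0502). The related receptor genes Ppara and Pparg read at most 2.99 on any array, below the level of 4.24 under which most olfactory receptor genes lay, as did the coactivator gene Ppargc1a. Their changes were 0.09, 0.01 and 0.09. Tfam, a factor for mitochondrial DNA, had a change of 0.48 with its arrays far apart (95% interval 0.13 to 0.84, limma adjusted p = 0.123), Rxra, the partner of the PPARs, had 0.25, and the estrogen-related receptor gene Esrra had 0.07 (95% interval -0.15 to 0.29). Nrf1 changed by 0.12 (limma adjusted p = 0.474).

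Of 9 other genes that PPARs are known to activate, 1 rose, 0 fell and 8 did not pass (median 0.06). Of these, Pdk4, Angptl4, Ucp3, Acot1, Cyp4a14, Vnn1 and Fabp1 read at most 3.45 on any array. That is below the level of 4.24 under which most olfactory receptor genes lay, so the count and the median rest mostly on dim probe sets. Fgf21, a hormone gene that also responds to amino acid and mitochondrial stress, read 4.37 and 4.60 in scramble and 5.35 and 5.61 in shLDHA. It rose 1.99-fold (log2 change 0.99, SE 0.13, limma adjusted p = 0.00987), and its adjusted p was 0.0567 without shLDHA replicate 2. Pdk4, a kinase that shuts pyruvate out of the mitochondrial cycle, and Angptl4, which are widely used readouts of PPAR activity, were dim, at 2.59 to 2.85 on all arrays, and changed by 0.06 and -0.02. Acot2, a mitochondrial thioesterase, was bright and changed by -0.05 (95% interval -0.26 to 0.16).

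**Figure D4:**
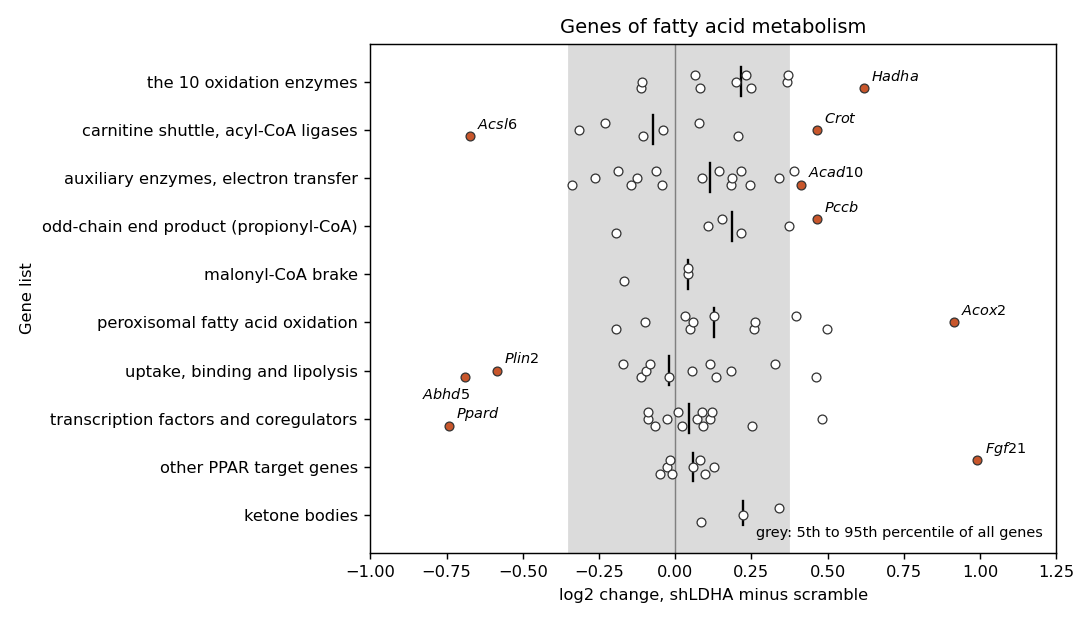
Each point is a gene, placed by its log2 change between shLDHA and scramble; filled points passed limma at an adjusted p under 0.05, black bars are list medians, and the grey band runs from the 5th to the 95th percentile of all genes (-0.35 to 0.37). The 10 oxidation enzymes have a median of 0.22 with Hadha alone filled, and filled points on the left are Acsl6, Abhd5, Plin2 and Ppard.

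The genes whose readings were most like those of Hadha were found, with its call known, from the 4 array values of each gene centred on the gene's mean, among 11089 other genes at or above the median level. By the root mean square difference the nearest were Prim2 (0.01), Mastl (0.02), Cstf2t (0.02), Tcf7l2 (0.02) and Klk10 (0.02), with log2 changes of 0.60, 0.64, 0.63, 0.59 and 0.67. In all, 373 of the 11089 lay within 0.1 of Hadha. With 4 arrays in 2 groups, this likeness says little more than that the genes rose by a similar amount.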

How the data were processed

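The authors deposited log2 expression values for 41345 probe sets on 4 arrays, and the submitters' processing notes name RMA and R 3.4.0. RMA usually includes quantile normalization, which makes the distributions of the arrays alike, and it compresses signals near the floor. The annotation version that RMA used is, in the sources used here, not given. Groups came from the sample titles, with which source and genotype labels match; the cell type label reads LDHA for all 4 samples, scramble included. A platform annotation paired 23521 probe sets with 1 gene symbol, 1814 with several and 16010 with none. Those with 1 symbol were used, and the brightest probe set stood for each of 22180 genes.

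Groups were tested by lmFit and eBayes of limma 3.58.1 (R 4.3.3) on the deposited log2 values, with no covariate and no filter on dim genes. The fit had 2 residual and 4.52 prior degrees of freedom, and every p is two-sided and adjusted over all genes tested. The code was tested on simulated data. The number of arrays limits the precision. Members and gene lists were chosen with earlier results of these data known. The rule for named genes took the 10 members, Ldha, and from each list every called gene and up to 4 genes with the smallest p; other list genes named were chosen after their values were seen. Of the listed genes, 9 of 91 had no probe set with that symbol alone and were not analysed here. Promoter sequences are from RefSeq's GRCm38.p6 table, and that of Acaa2 was not used here. Alternatives were a replicate block, a filter on level, quantile normalization again, centring on the median, the mean of probe sets, every probe set, eBayes with a trend or robust, and each array left out.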

Additional observations from a re-analysis of the deposited data

How the results depend on the processing

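Against 1410 genes called, 838 were called with the replicate number as a block, 2836 with the filter on level and 2806 with a variance trend, and 360 to 638 without 1 array. Against 1 member called, 3 were called with the filter and 4 with the trend, and 0 to 1 without 1 array. Against 9 of the surrounding genes, 18 were called with the filter and 18 with the trend, and 2 to 6 without 1 array. The counts with the filter are of 11090 genes and 58 surrounding genes tested, and those with the trend of 22180 and 82. The filter tests fewer genes and also fits the variance on those genes alone. Leaving out an array leaves 1 fewer sample. Why the counts differed between settings was not tested. The difference between the changes of Hadha and Hadhb was 0.51 to 0.56 without 1 array. The labels do not say that replicate numbers pair the samples, and same-numbered arrays did not deviate together across genes (r = -0.03). With the replicate block, 1 member (Hadha, adjusted p = 0.0307) and 6 surrounding genes (2 higher, 4 lower) were called; Crot (0.0818), Acad10 (0.0755), Pccb (0.0783) and Ldha (0.0734) lost their calls. No member and no called surrounding gene changed sign in the settings run. Many of these settings could not change a sign, because they left the log2 change as it was or the groups did not overlap.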
